A study of Mus musculus with 15 samples.

Results

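A set of 10 transcription factor genes known for the identity of Purkinje cells (PCs) was followed through the first 3 postnatal weeks: Rora, Lhx1, Lhx5, Foxp1, Foxp2, Foxp4, Skor2, En1, En2 and Ebf1. They were chosen by name, each as the gene row whose Ensembl identifier carries that symbol in GENCODE M21, and make 10 of the 38561 gene rows in the count files. All 10 passed the filter on low counts, which left 14293 genes for testing. The libraries came from PCs cut by laser from the cerebellum of untreated male mice at postnatal days 0, 4, 8, 14 and 21 (P0 to P21), with 3 replicates at each time point. The labels spell the strain C56/BL6, whereas the study's methods give it as C57/BL6. The collection differed at P0, where single PCs were hard to isolate and clusters of them were cut, from more tissue sections than later. Single somata were cut from P4 on. Age and way of collection therefore cannot be told apart at P0.

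PCs are the GABAergic output neurons of the cerebellar cortex. They leave the cell cycle before birth and grow their dendritic tree and receive most of their synapses afterwards, so that the early postnatal weeks are a period of maturation in cells whose type is already set. Rora encodes the nuclear receptor RORα, without which PCs stay immature and die, as in the staggerer mouse. Lhx1 and Lhx5 are LIM-homeodomain factors that act with the cofactor Ldb1 in PC differentiation, and the forkhead factors Foxp1, Foxp2 and Foxp4 are repressors that can pair with each other. Skor2 is a corepressor that PC precursors need to take on their fate. En1 and En2 are the engrailed homeodomain repressors of hindbrain and cerebellar patterning, and Ebf1 is a helix-loop-helix factor of the Collier/Olf/EBF family.

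The upstream bases of Rora and Lhx1 are shown because these were the most abundant members at P21. RefSeq promoter windows (GRCm38.p6) existed for 6 of the 10 members. The Rora stretch lies at chr9:68653536-68653785 on the plus strand and ends at the base before the annotated gene. The Lhx1 stretch lies at chr11:84525535-84525784 on the minus strand and takes in the first annotated base of the gene. Both are written 5′ to 3′, and capitals mark a CCAAT box, here read from the other strand, with its first base 68 bases before the Lhx1 start. The Rora window also held 1 CCAAT match, 6 bases after the Rora start and so past the bases shown.

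Rora: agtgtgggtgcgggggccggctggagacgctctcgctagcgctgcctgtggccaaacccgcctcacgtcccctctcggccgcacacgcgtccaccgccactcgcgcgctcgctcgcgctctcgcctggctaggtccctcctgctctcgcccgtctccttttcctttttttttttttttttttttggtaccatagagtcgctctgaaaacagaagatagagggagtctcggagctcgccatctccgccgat
Lhx1: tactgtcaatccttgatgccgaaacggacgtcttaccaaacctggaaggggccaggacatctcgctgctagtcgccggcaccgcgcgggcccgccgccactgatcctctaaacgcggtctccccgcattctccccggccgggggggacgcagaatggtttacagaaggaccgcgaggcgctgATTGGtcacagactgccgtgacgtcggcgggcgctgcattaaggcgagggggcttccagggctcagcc

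Neither stretch held a match on either strand to AGGTCA (the ROR half-site core), TAATTA (a LIM-homeodomain core), TGTTTAC (a forkhead core), CCCNNGGG (an EBF core) or TATAAA. The 32851 promoter windows compared are 300 bases long and leave out chromosome 18. Of these, 16.3% held AGGTCA, 5.29% held TAATTA, 3.65% held TGTTTAC, 13.7% held CCCNNGGG, 13.6% held TATAAA and 37.4% held CCAAT. Among the 9 windows of the members, only Foxp1 had a match to one of the 4 factor motifs, to CCCNNGGG in 1 window and to TAATTA in another.

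The libraries held between 3409371 and 7814951 counts on genes. The share of counted reads that fell on no gene was between 24.1% and 29.8% at P0, between 20.1% and 23.4% at P4 and P8, and between 16.7% and 19.1% at P14 and P21. All 6 PC markers that were listed rose with age (Calb1, Itpr1, Pcp2, Pcp4, Car8 and Ppp1r17), and their summed level went from 5340 ± 737 CPM (counts scaled to the same library size by TMM, SD, n = 3) at P0 to 42941 ± 5287 at P21. In whole captured cells, fewer cells of a type and less RNA per cell cannot be told apart. Of 8 Bergmann glia and astrocyte markers, 2 rose and 2 fell, and their sum peaked at P8, at 9008 ± 866 CPM, against 4721 ± 861 at P0 and 3463 ± 736 at P21. Of 7 oligodendrocyte markers 5 rose, with a sum of 33.3 ± 5.27 CPM at P0 and 582 ± 243 at P21. Of the 6 vascular and mural markers 2 fell, with a sum of 163 ± 75.3 CPM at P0 and 57.0 ± 11.7 at P21. Of 8 markers of granule neurons and their precursors, 2 rose, 1 fell and Atoh1 had no count in any library. Their sum was also highest at P8, at 917 ± 199 CPM, against 569 ± 117 at P0 and 437 ± 124 at P21, and reached 1166 CPM in a P14 library. The 4 microglial markers summed to at most 25.5 CPM in any library. The 4 markers of GABA interneurons summed to between 28.7 and 96.5 CPM, and Eomes and Tbr1, which mark unipolar brush cells and cerebellar nuclei, to at most 43.1 CPM. Their part in the results below was not tested.

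With age, 7 of the 10 members changed. With edgeR's quasi-likelihood test of a slope over postnatal day, adjusted by Benjamini-Hochberg over all genes, 4 members rose (Rora, Lhx1, Lhx5 and Foxp4), against 12.1% of all tested genes, and 3 fell (Foxp1, Foxp2 and Ebf1), against 14.1%. Skor2, En1 and En2 did not pass. A test for any difference among the 5 time points named 7 members, against 19.3% of all genes, and they were the ones named by the slope. In that test Foxp4 was no longer called with total-count scaling (edgeR adjusted p = 0.0966), without P21 (0.422), or without P21 replicate 1 (0.148), P21 replicate 2 (0.0688), P0 replicate 3 (0.0531) or P4 replicate 3 (0.0502). Without P21, Lhx1 (edgeR adjusted p = 0.521) and Foxp1 (0.156) lost that call too, where 1767 of 13998 genes were called. En1 was called with DESeq2 (adjusted p = 0.00746) and limma-voom (0.0373), and with edgeR without P4 replicate 2 (0.0162). Between P0 and P21, 4 members were higher at P21 (12.2% of all genes) and 3 were lower (10.6%), again those same genes, of which Lhx1 was no longer called with total-count scaling or without P0 replicate 3 or P21 replicate 2 (edgeR adjusted p = 0.0868, 0.0546 and 0.0537). The median slope of the members was -0.0014 log2 units per day and that of all tested genes was -0.0077. Without the P0 libraries the slope named all of these 7 members again, 4 rising and 3 falling, against 1411 and 1526 of 13854 genes, or 21.2% in either direction. Without the P21 libraries, a setting added after the data were seen, it named 2 rising members (Rora and Lhx5) and 2 falling ones (Foxp2 and Ebf1), against 1244 and 1097 of 13998 genes, or 16.7% in either direction. Scaling by total counts alone moved the split over all genes, from 2021 falling and 1729 rising to 2874 and 1230, and it took Lhx1 out of the members called.

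**Figure D1:**
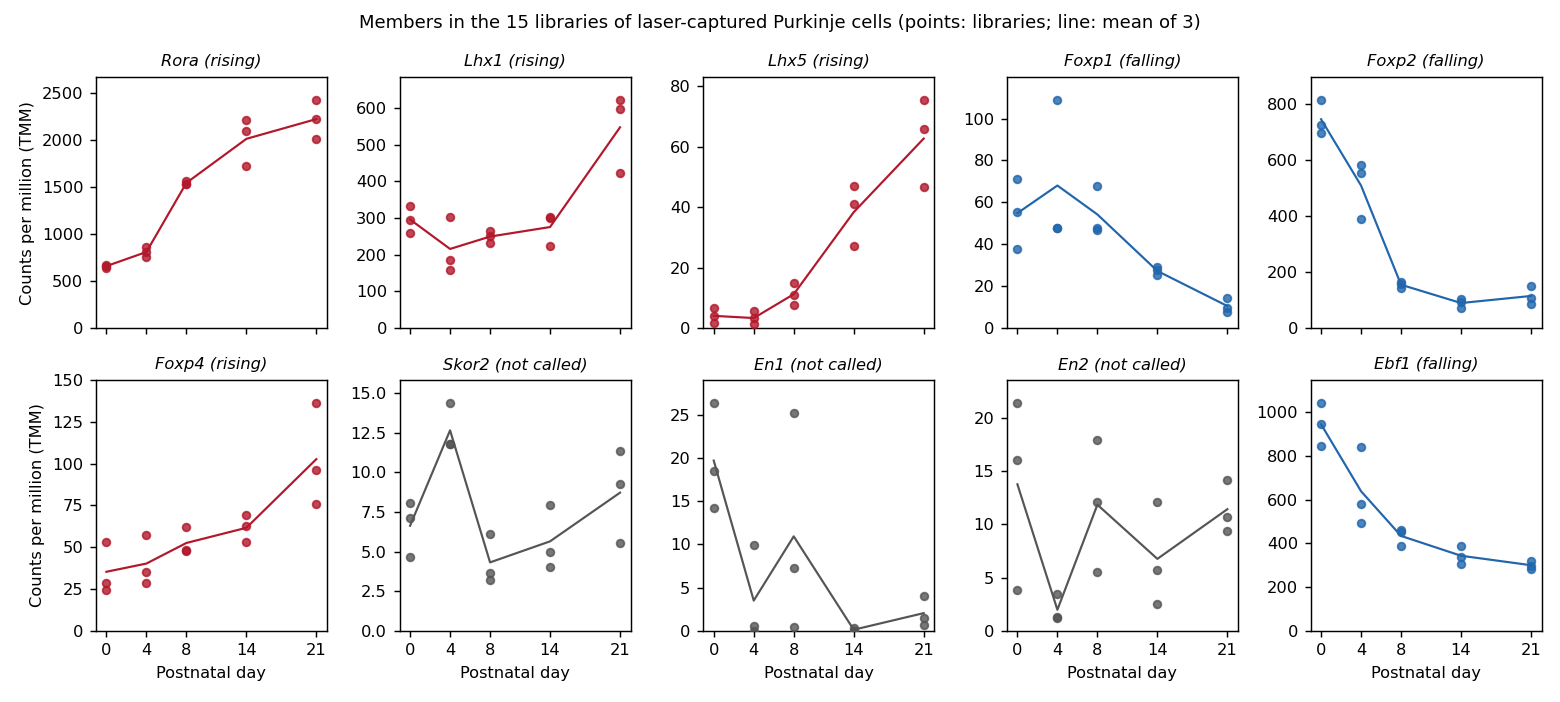
CPM (TMM-scaled, linear axis from 0) of each member against postnatal day. Points are libraries, lines join the means of 3 and the colour gives the call of the slope. Rora climbed from 658 to 2219 CPM while Foxp2 went from 746 to 115 CPM, and En1 and En2 scattered within time points.

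Members passed the edgeR test in 1 of the 4 intervals between time points. From P4 to P8, 2 members passed the test, Rora and Foxp2, against 1.13% of all genes. No member passed from P0 to P4 (1.97% of all genes), from P8 to P14 (2.67%) or from P14 to P21 (0.329%) with edgeR. DESeq2, which called more genes in every interval, named 2 members from P0 to P4 (En2 and Ebf1, against 5.49% of all genes), 4 from P8 to P14 (Rora, Lhx5, Foxp2 and En1, against 5.90%) and 1 from P14 to P21 (Lhx1, against 1.21%). The engrailed calls rest on few counts. For En1 these were 36, 2 and 139 at P8 against 2, 0 and 0 at P14. For En2 they were 20, 108 and 79 at P0 against 14, 10 and 7 at P4. Limma-voom called Rora alone from P8 to P14, against 4.20% of all genes.

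**Figure D2:**
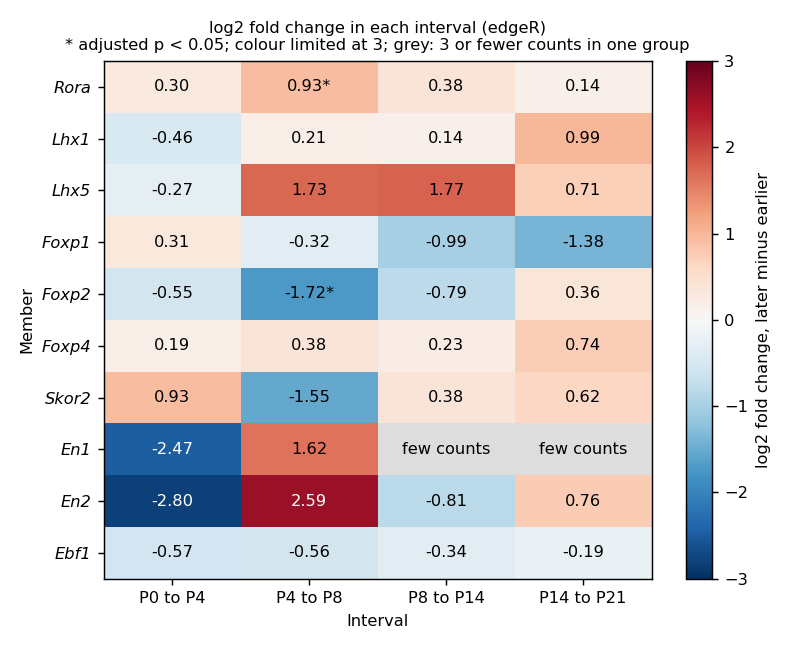
Log2 fold change of each member in the 4 intervals between time points, later minus earlier, from edgeR. An asterisk marks an adjusted p under 0.05, which Rora (0.93) and Foxp2 (-1.72) reached from P4 to P8. Grey cells are those of En1 at P14, where the 3 libraries held 2 counts in all.

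Rora (ENSMUSG00000032238, chromosome 9, 68653786 to 69388246, plus strand, GRCm38) was the member with the highest mean CPM from P4 on. Per exon length it had the highest mean from P8 on. It stood at 664, 670 and 640 CPM in the 3 P0 libraries, at 805, 760 and 859 at P4, at 1565, 1530 and 1530 at P8, at 2091, 1726 and 2212 at P14 and at 2423, 2224 and 2012 at P21. The 3 values of each time point up to P14 lay above all those of the time point before, and only P14 and P21 overlapped. Its slope was 0.089 log2 units per day (SE 0.011, edgeR adjusted p = 4.93e-06), and its level at P21 was 3.37-fold that at P0 (edgeR adjusted p = 9.67e-08). From P4 to P8 the log2 change was 0.93 (SE 0.13, edgeR adjusted p = 0.00113). From P14 to P21 it was 0.14 (SE 0.13, edgeR adjusted p = 0.987).

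Both PC LIM-homeodomain genes rose, on different schedules. Lhx1 (ENSMUSG00000018698, chromosome 11, 84518284 to 84525535, minus strand) stood at 332, 296 and 260 CPM at P0, at 157, 304 and 186 at P4, at 232, 252 and 265 at P8, at 301, 224 and 302 at P14 and at 597, 622 and 424 at P21. Its levels overlapped from P0 to P14, and all 3 P21 libraries lay above every earlier one. The slope was 0.046 log2 units per day (SE 0.013, edgeR adjusted p = 0.0114). That rise rested on P21, since without that time point the slope was -0.00081 (edgeR adjusted p = 0.984), without P21 replicate 1 or 2 alone the adjusted p was 0.0526 or 0.0598, with total-count scaling it was 0.0931, and against log2(day + 1) it was 0.204.

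Lhx5 (ENSMUSG00000029595, chromosome 5, 120431699 to 120441223, plus strand) was scarce at birth, with 34, 20 and 8 counts in the P0 libraries. It had 6.54, 3.97 and 1.62 CPM at P0, 1.23, 3.23 and 5.48 at P4, 14.9, 11.1 and 7.60 at P8, 40.9, 27.2 and 46.8 at P14 and 65.8, 75.4 and 46.8 at P21. The P8 libraries lay above all at P0 and P4, and the P14 libraries above all at P8. Its P21 level was 15.4-fold that at P0 (edgeR adjusted p = 2.79e-04), and its slope of 0.22 log2 units per day (SE 0.028, edgeR adjusted p = 1.13e-05) was the steepest among the members called. In RPKM, which divides counts by the library's total on genes and by exon length so that genes of 1 library can be compared, Lhx5 made up 1.94% ± 0.98 of the sum of both genes at P0 and 14.7% ± 0.69 at P21 (SD, n = 3).

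The 3 Foxp genes parted from each other. Foxp2 (ENSMUSG00000029563, chromosome 6, 14901349 to 15441977, plus strand), the Foxp gene most used as a PC marker, had 696, 814 and 726 CPM at P0, 389, 584 and 553 at P4, 144, 156 and 164 at P8, 94.4, 71.1 and 103 at P14 and 152, 108 and 84.4 at P21. Each time point up to P14 lay wholly below the one before. Its slope was -0.14 log2 units per day (SE 0.020, edgeR adjusted p = 3.14e-05). The log2 change from P4 to P8 was -1.72 (SE 0.23, edgeR adjusted p = 7.20e-04), and the P21 level was 0.153 of that at P0 (edgeR adjusted p = 4.74e-07).

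Foxp1 (ENSMUSG00000030067, chromosome 6, 98925338 to 99522721, minus strand) was lower and fell later. It had 71.3, 55.6 and 37.7 CPM at P0, 109, 47.6 and 47.6 at P4, 48.0, 46.7 and 68.0 at P8, 25.2, 27.6 and 29.0 at P14 and 14.4, 9.53 and 7.69 at P21. The P0, P4 and P8 libraries overlapped, and P14 and then P21 each lay below. The slope was -0.13 log2 units per day (SE 0.023, edgeR adjusted p = 3.91e-04), with an adjusted p of 0.0566 against log2(day + 1) and of 0.109 without P21. It shares 300 exon bases with Gm20696 on the same strand, a gene row with 85 counts over all libraries.

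Foxp4 (ENSMUSG00000023991, chromosome 17, 47867133 to 47924645, minus strand) went the other way. Its values were 24.6, 53.0 and 28.4 CPM at P0, 28.7, 57.1 and 35.0 at P4, 61.9, 47.7 and 48.1 at P8, 62.8, 53.1 and 69.1 at P14 and 137, 95.9 and 75.7 at P21. Neighbouring time points overlapped up to P14, and P21 lay above all earlier libraries. The slope was 0.072 log2 units per day (SE 0.014, edgeR adjusted p = 7.98e-04), and the adjusted p was 0.117 without P21.

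The make-up of Foxp transcripts, described per exon length, turned over. The merged exons span 16346 bases for Foxp2 and 4926 for Foxp4, which weighs on these shares. In CPM, without that division, the mean of Foxp2 stayed above that of Foxp4 at every time point, at 115 against 103 at P21. Foxp2 made up 80.6% ± 3.42 of the summed Foxp1, Foxp2 and Foxp4 RPKM at P0, 39.4% ± 3.51 at P8 and 24.5% ± 0.096 at P21 (SD, n = 3). Foxp4 made up 12.3% ± 3.80, 44.3% ± 5.67 and 72.8% ± 0.038 at the same ages, and Foxp1 7.09% ± 2.44, 16.3% ± 3.18 and 2.66% ± 0.077. The narrow spread of the shares at P21 was below what counting alone gives, since the log2 ratio of Foxp2 to Foxp4 counts had an SD of 0.0061 there against a counting SD of 0.094.

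**Figure D3:**
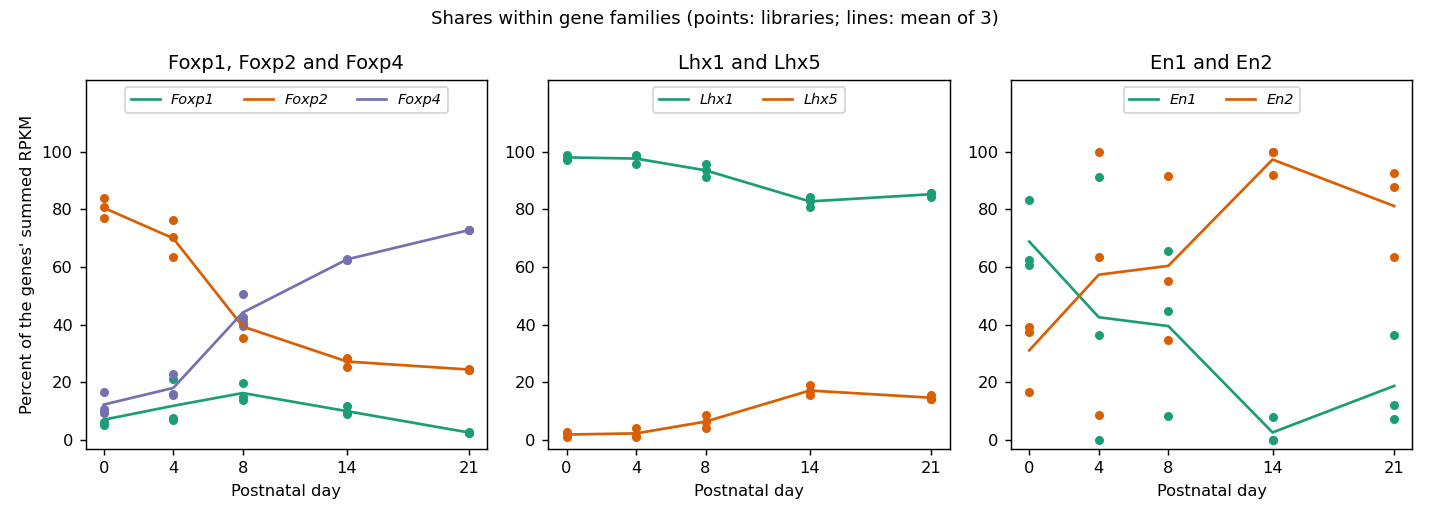
Percent of the summed RPKM that each gene made up within 3 families, against postnatal day (points are libraries, lines join means of 3). Foxp4 passed Foxp2 at P8 on the means of these shares, though in P8 replicate 3 Foxp4 had 39.4% and Foxp2 40.6%. In CPM the mean of Foxp2 stayed higher at every time point. Lhx1 stayed above 80% of the LIM pair in every library, and the engrailed shares covered nearly the whole range at P4.

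Altogether 5 ratios of paralogs were tested against postnatal day over the 15 libraries, as the log2 of counts with 0.5 added, with permutation tests adjusted over the 5. The ratio of Foxp2 to Foxp4 counts went from 22.3 at P0 to 1.12 at P21 (geometric means), with Pearson's r = -0.93 (two-sided permutation p = 1e-05, the smallest that 100000 resamples can give, adjusted p = 2.5e-05). Spearman's rho was -0.97 (permutation p = 1e-05, adjusted p = 5e-05), and r was -0.94 without P21 replicates 1 and 2, taken from the libraries farthest from the median day. Foxp1 to Foxp4 had r = -0.91 (permutation p = 1e-05, adjusted p = 2.5e-05) and rho = -0.85 (permutation p = 1e-04, adjusted p = 2.5e-04), and r was -0.85 without those 2 libraries.

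Lhx1 to Lhx5 went from 82.0 to 8.77, with r = -0.87 (permutation p = 1e-04, adjusted p = 1.67e-04) and rho = -0.83 (permutation p = 2.2e-04, adjusted p = 3.67e-04), and r was -0.87 without the 2 libraries. Foxp1 to Foxp2 had no monotone course, at 0.0715 at P0, 0.346 at P8 and 0.0923 at P21, with r = 0.17 (permutation p = 0.536, adjusted p = 0.536) and rho = 0.34 (permutation p = 0.221, adjusted p = 0.221), and r was 0.46 without the 2 libraries. Without all of P21, r was 0.79 (permutation test, adjusted p = 0.00582).

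Ebf1 (ENSMUSG00000057098, chromosome 11, 44617317 to 45008091, plus strand) was the most abundant member at P0. It had 948, 1044 and 845 CPM at P0, 494, 580 and 843 at P4, 462, 387 and 454 at P8, 386, 307 and 338 at P14 and 285, 319 and 297 at P21. Every P4 library lay below every P0 library, as did P8 below P4 and P14 below P8, and P14 and P21 overlapped. Some of these groups nearly touched. The lowest P0 library had 844.6 CPM and the highest P4 library 842.9. The lowest P8 library had 386.7 CPM and the highest P14 library 386.0. The slope of Ebf1 was -0.077 log2 units per day (SE 0.0099, edgeR adjusted p = 1.13e-05), and the P21 level was 0.318 of that at P0 (edgeR adjusted p = 1.00e-05). The decline was spread out, with log2 changes of -0.57, -0.56, -0.34 and -0.19 from interval to interval, none of which passed the edgeR test over all genes.

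Ebf1 was compared with its relatives Ebf2 and Ebf3. Ebf3 fell from 279 CPM at P0 to 32.8 at P21 (means, n = 3). Ebf2, known from a subset of PCs, differed among the time points (edgeR adjusted p = 1.37e-04) without a called slope. It had 337, 448 and 336 CPM at P0, 39.4, 7.28 and 9.98 at P14 and 173, 154 and 94.3 at P21, so that every P21 library lay above every P14 library. Ebf1 made up 53.6% ± 2.58 of the summed Ebf1, Ebf2 and Ebf3 RPKM at P0, 86.1% ± 3.91 at P14 and 56.8% ± 6.94 at P21 (SD, n = 3).

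The engrailed genes were scarce and uneven. En1 (ENSMUSG00000058665, chromosome 1, 120602418 to 120607992, plus strand) had 74, 133 and 91 counts in the P0 libraries, 0, 77 and 3 at P4, 36, 2 and 139 at P8, 2, 0 and 0 at P14 and 12, 7 and 4 at P21. All P0 libraries lay above all at P4, P14 and P21, but the libraries ranged from 0 to 9.96 CPM within P4 and from 0.382 to 25.1 CPM within P8. The slope was -0.17 log2 units per day with a wide error (SE 0.076, edgeR adjusted p = 0.121). The P14 libraries were at or under the limit of 3 counts that an absence allows, so no fold change is given for that age.

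En2 (ENSMUSG00000039095, chromosome 5, 28165694 to 28172166, plus strand) had 20, 108 and 79 counts at P0, 14, 10 and 7 at P4, 60, 29 and 99 at P8, 31, 63 and 13 at P14 and 28, 67 and 67 at P21. In CPM the P4 libraries were below all those of P0, P8 and P21 and overlapped P14, and the other time points overlapped each other. Its slope was 0.0034 (SE 0.040, edgeR adjusted p = 0.964). The ratio of En1 to En2 went from 1.73 at P0 to 0.148 at P21, with r = -0.56 (permutation p = 0.0318, adjusted p = 0.0398) and rho = -0.58 (permutation p = 0.0275, adjusted p = 0.0343), and r was -0.68 without P21 replicates 1 and 2. That call was lost when any 1 of 10 libraries was left out, with r between -0.66 and -0.49 over all 15 such fits and an adjusted p of up to 0.0919 (permutation test), and it was lost without P0, where r was -0.37. With 0 En1 counts in P4 replicate 1 and P14 replicates 2 and 3, the ratios there rest on the 0.5 added. From counting alone, the log2 ratio had an SD of 1.34 at P4 and 1.77 at P14.

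Skor2 (ENSMUSG00000091519, chromosome 18, 76856405 to 76900342, plus strand) stayed low throughout. It had 8.08, 7.14 and 4.66 CPM at P0, 11.8, 11.8 and 14.4 at P4, 3.23, 6.10 and 3.62 at P8, 7.91, 4.98 and 4.03 at P14 and 11.3, 5.51 and 9.29 at P21. The P4 libraries lay above all others, and the rest overlapped. Its slope was -0.0063 log2 units per day (SE 0.031, edgeR adjusted p = 0.912), and the test for any pattern gave an edgeR adjusted p of 0.507.

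The order of the members per exon length changed with age. At P0 Ebf1 led with 108 ± 11.7 RPKM, above Lhx1 (81.2 ± 9.45), Rora (56.3 ± 1.39) and Foxp2 (51.0 ± 4.50, SD, n = 3). The 3 values of Ebf1 and Lhx1 did not overlap, nor did those of Lhx1 and Rora, whereas Rora and Foxp2 overlapped. The remaining 6 members lay at 8.39 RPKM or less, with Lhx5 last at 1.68 ± 1.01 and every neighbour overlapping the next.

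At P21 Rora led with 148 ± 13.2 RPKM, followed without overlap by Lhx1 (117 ± 21.1) and Ebf1 (26.9 ± 1.08). Lhx5 (20.3 ± 4.30) and Foxp4 (18.2 ± 5.51) came next and overlapped, and Foxp2 had 6.12 ± 1.84. En1 and Foxp1 were last, at 0.680 ± 0.588 and 0.668 ± 0.220. Among the 14156 tested genes with an exon length, Rora moved from rank 1050 to rank 365, Lhx5 from 10770 to 2421, Ebf1 from 570 to 1917 and Foxp2 from 1162 to 5476. These levels are on the scale of total counts, so the order within an age can be read from them and a change of 1 gene between ages is given in CPM above.

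Members were also set beside each other over the 15 libraries as log2(CPM + 1), which share age, depth and scaling, so the correlations are given as descriptions. Rora and Foxp2 ran opposite (r = -0.95), as did Rora and Ebf1 (r = -0.92), while Foxp2 and Ebf1 ran together (r = 0.93). Rora and Lhx5 had r = 0.92, Lhx1 and Lhx5 r = 0.68, and En1 and En2 r = 0.41. Of 10778 genes compared on the same scale, the nearest to Rora were Washc2 (r = 0.986) and Ppp1r1b (r = 0.985), to Lhx1 Ap2a2 (0.890) and Tenm4 (0.866), and to Lhx5 Cpeb1 (0.969) and Rtn4 (0.968). St8sia2 (0.960) and Knstrn (0.959) were nearest to Foxp2, Tubb5 (0.963) and Xpr1 (0.946) to Ebf1, Eef1e1 (0.951) and E130114P18Rik (0.925) to Foxp1, and Rreb1 (0.924) and Pink1 (0.921) to Foxp4. The nearest genes were less alike for En2 (Bsn, 0.883, and Tnrc6a, 0.842), En1 (Ppig, 0.876, and Lsm14b, 0.841) and Skor2 (Zc3h13, 0.738, and Lipt1, 0.722).

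Genes known to be reduced in PCs that lack Rora were followed beside it. Of 6 such genes, 5 rose with age and Shh, the signal from PCs to granule cell precursors, was not called, at 9.41 CPM at P0 and 16.1 at P21 (means, n = 3). Of these 5, 4 (Pcp2, Pcp4, Itpr1 and Calb1) are also among the PC markers above. Their largest steps fell in different intervals. From P0 to P4 these were the steps of Itpr1, the calcium release channel of the PC endoplasmic reticulum (log2 change 2.74), Pcp2 (1.43) and Calb1 (1.30). From P8 to P14 it was that of Pcp4 (0.90), though its step from P0 to P4 was nearly as large (0.87). Slc1a6, the PC glutamate transporter, had its largest step from P4 to P8 (2.78), the interval in which Rora passed the test. Any link between the steps of these genes and Rora was not tested. The median slope of these 6 genes was 0.13 log2 units per day.

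**Figure D4:**
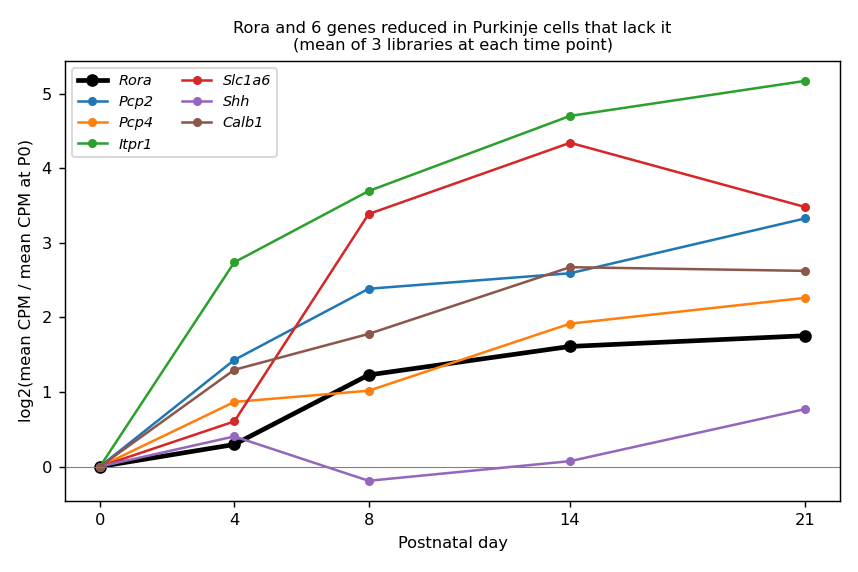
Log2 of the mean CPM of 3 libraries over the mean at P0, for Rora (black) and 6 genes known to be reduced without it, against postnatal day. Itpr1 was 2.74 log2 units above P0 by P4, where Rora was at 0.30, and the mean of Slc1a6 went from 1708 CPM at P14 to 941 CPM at P21.

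Family relatives of the members were mostly absent. Of 17 listed, 6 were tested, of which Ebf3 fell and none rose. Lhx2, Lhx6, Lhx8, Lhx9, Isl1 and Isl2 had no count in any library, and the other LIM-homeodomain relatives listed (Lhx3, Lhx4, Lmx1a and Lmx1b) stayed under 0.5 CPM on the mean of every time point. Rorb, the closest relative of Rora listed, had 31.2, 90.1 and 119 CPM at P0 and 9.08, 6.47 and 9.25 at P4 (any pattern, edgeR adjusted p = 0.00364), and Rora made up 87.7% ± 6.46 of their summed RPKM at P0 and 98.2% ± 0.96 at P21 (SD, n = 3). Skor1, at 138, 23.4 and 26.6 CPM at P0, rested on 1 library there.

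Partners of the LIM-homeodomain factors were taken next. Of 9 genes tested, 4 fell and 1 rose, with a median slope of -0.044 log2 units per day. Ldb1, the bridging cofactor, was not called, at 53.0 CPM at P0 and 33.5 at P21. Ldb2 fell with age, but its P0 libraries stood at 3.85, 1.39 and 41.8 CPM, so that the level there rested on replicate 3, and the P21 libraries held 0, 0 and 1 counts. Lmo4 (48.9 to 14.5 CPM), Ssbp3 (197 to 86.9) and Ssbp2 (127 to 72.0) fell between P0 and P21 means, whereas Lmo2, a LIM-only competitor for Ldb proteins, rose from 21.5 to 69.6 CPM. For Ssbp2 the slope was called, but P21 against P0 was not (edgeR adjusted p = 0.102).

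Among 9 nuclear receptor cofactors, Ncoa1, a coactivator of nuclear receptors, rose from 133 to 474 CPM, Ncoa3 fell from 72.4 to 27.8 CPM and 7 were not called. Among 9 Groucho and Pbx partners of engrailed proteins, Aes, a short Groucho protein, rose from 85.3 to 229 CPM, none fell and 8 were not called. Among 8 cofactors of Foxp and Ebf proteins, Zfp423, a zinc finger protein that binds EBF factors, fell from 115 to 25.2 CPM and 7 were not called. None of the 5 Ski and Smad genes, partners of Skor proteins, was called by edgeR either way, nor were any of the 3 tested of 6 early lineage factors. Ptf1a, which sets the GABAergic lineage before birth, was under the filter, at 0.605 CPM or less on the mean of any time point. The median slopes of these lists were 0.011 (nuclear receptor), -0.015 (engrailed), -0.023 (Foxp and Ebf), -0.0062 (Skor) and -0.063 (early lineage), beside -0.0077 over all tested genes.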

How the data were processed

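RNA from laser-captured PCs was amplified with the SMARTer Ultra Low kit, which does not mark strand. The authors trimmed the reads (cutadapt 1.2.1), aligned them to GRCm38.p1 (mm10) with GSNAP 2012-07-20, kept uniquely mapping reads and counted them per gene with HTSeq 0.5.3p9 in its intersection-strict mode, and these raw counts are the values the authors deposited. The strand setting and annotation release are not given in the sources used here, so a gene and its antisense partner cannot be told apart. Symbols, positions and exon lengths came from GENCODE M21, which matched 36639 of 38561 gene rows, and promoter sequences from RefSeq on GRCm38.p6. The tallies of reads on no gene or on several were left out of totals.

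Counts were filtered by time point (filterByExpr), scaled by TMM and tested with edgeR 4.0.16 (quasi-likelihood, R 4.3.3) as a slope with day, as any difference among the 5 time points and as contrasts, with Benjamini-Hochberg adjustment over 14293 genes and a threshold of 0.05. Standard errors were taken from the fold change and the F statistic. Each fit used all 15 libraries. RPKM used total counts on genes and merged exon length, so overlapping genes and isoforms of unequal length limit comparisons between genes. Likeness was Pearson's r of log2(CPM + 1) over 15 libraries, among genes with a mean of at least 5 CPM, and the 2 nearest genes were named for each member. Apart from those and the overlapping gene Gm20696, genes named beyond the members came from fixed lists, of which 1 gene is not reported here. Ratios of paralogs were tested by permutation (100000 resamples, two-sided). Alternatives were DESeq2 1.42.0, limma-voom 3.58.1, other scalings, no filter, a replicate block, log2(day + 1), the series without P0 or P21, and leaving out each library. The slope test and the test for any difference were tried on simulated counts with known linear slopes. The contrasts and the ratio tests were not tried in this way. The members and lists were chosen with earlier results of these data known. The study describes the replicates as biological, and no pair of one time point agreed within sampling noise (chi-square per gene between 19.3 and 59.5). Library totals of 3409371 to 7814951 counts put the limit that 3 counts allow between 0.384 and 0.880 CPM, which covers counting error only.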

Additional observations from a re-analysis of the deposited data

How the results depend on the processing

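Of 531 recomputed values, 491 kept their sign and either their side of the threshold or, for counts, a value within 1.5 times the main one. A further 11 differed in sign with no call in either setting, 9 of them slopes of En2. DESeq2 called 2 members from P0 to P4, 4 from P8 to P14 and 1 from P14 to P21, against 0 with edgeR. From P8 to P14 total-count scaling and limma-voom each called 1 member, where they called 470 and 600 of 14293 genes. Without P21, a setting chosen after seeing the data, 2 members rose and 4 changed in any pattern, against 1244 and 1767 of 13998 genes. In that setting the Lhx1 slope turned to -0.00081, and the ratio of Foxp1 to Foxp2 passed with r = 0.79. The ratio of En1 to En2 no longer passed without P0 (r = -0.37). Leaving out 1 library at a time gave between 0 and 1 members called from P0 to P4 (Ebf1 without P4 replicate 3, against 302 of 14962 genes). From P14 to P21 it gave between 0 and 1 (Lhx1 without P4 replicate 2, against 37 of 15023 genes). Between 6 and 8 members changed in any pattern, against between 2263 of 15064 and 2728 of 15023 genes. For En1 to En2, r was between -0.66 and -0.49. For these changes the cause was not tested.

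Samples with the same replicate number did not deviate together (mean r = -0.0036, against 0.0018 for different numbers), and 3 of 15 samples were closest to their own number. With the replicate number as a block, 3 members fell, 4 rose and 7 changed in any pattern, against 1911, 1723 and 2552 of 14293 genes. No call of a member's slope changed. Over all genes, DESeq2 called 785, 496, 844 and 173 genes in the 4 intervals against 281, 162, 382 and 47 with edgeR. Limma-voom called 310 from P4 to P8 and 600 from P8 to P14. Leaving out 1 library gave as few as 186, 74, 163 and 24, and as many as 68 from P14 to P21. Total-count scaling gave 2292 genes lower and 1312 higher at P21 than at P0, against 1522 and 1739. It moved the median of all genes between P0 and P21 from -0.11 to -0.46 (log2), beside which member changes are to be read. Depth limits En1, En2, Skor2 and early Lhx5, whose libraries often held under 100 counts.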
